A study of Homo sapiens with 4 samples.

Results

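Chromatin accessibility was compared at the promoters that were open in every library of an ATAC-seq series on HK1, a human nasopharyngeal carcinoma cell line. ATAC-seq uses the Tn5 transposase to cut and tag DNA that is not wrapped in nucleosomes, so a pile of tags marks an open stretch. The 4 libraries were unedited cells left untreated (WT), unedited cells treated with interferon gamma (WT-IFN-γ), FLI1 knockout cells left untreated (sgFLI1) and FLI1 knockout cells treated with interferon gamma (sgFLI1-IFN-γ). All were HK1 cells, and the labels do not say whether the knockout cells were a clone or a pool. The labels give 1 library and 1 peak list per group, so the spread between replicates could not be measured, no difference below carries a test, and every interval covers counting error only. Each series of 4 values below lists the unedited cells first, untreated then treated, and then the knockout cells, untreated then treated.

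The peaks of the 4 lists were merged wherever they overlapped, which gave 93211 regions on chromosomes 1 to 22 and X. A region was taken as a shared promoter when it held a peak of every list and the summit of its WT peak lay within 1000 bp of a protein-coding transcription start site (TSS). There were 11675 shared promoters among 40876 regions present in all 4 lists. They were chosen by measured values, namely a called peak in every library and the position of the WT summit, so their being open in all 4 libraries is no finding. Promoters that lost or gained a peak are therefore not among them, and the largest changes are missing by construction. The shared promoters covered TSSs of 11964 of 19618 protein-coding genes (61.0%). Just inside the limit, the 129 regions with a summit over 900 and up to 1000 bp from a TSS had a median WT pileup of 51 tags, against 61 tags for the 120 regions over 1000 and up to 1100 bp away.

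Promoters are where RNA polymerase is loaded, and the promoters of genes that every cell uses usually lie in CpG islands that stay open in most cell types. Interferon gamma binds its receptor on the cell surface and, through Janus kinases, activates transcription factors that switch on genes of antigen presentation and antiviral defence. Members of the IRF family of factors bind many of those genes at paired GAAA motifs. FLI1 belongs to the ETS family, whose members bind sites built around GGAA, and which are common in housekeeping promoters. No shared promoter lay at a TSS of FLI1, so the knockout could not be checked from them.

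Sequences around the sites that recur in the results below were read from the GRCh38 genome on the strand of the gene. The first set shows the paired GAAA motif, meaning 2 copies of GAAA with any 2 bases between them, at the 8 interferon-list promoters with the highest IFN-γ ratio in WT among those that hold it within 100 bp of the WT summit. Capitals mark the motif or its reverse complement. Where the stretch overlapped an annotated exon, 30 bases are given.
APOL1, chr22:36253067-36253096, plus strand: ttgtgacTTTCACTTTCCCTTTCgaattcc
BATF2, chr11:64997026-64997055, minus strand: ggctttaggaGAAACTGAAActtggccctc
ISG15, chr1:1013344-1013439, plus strand: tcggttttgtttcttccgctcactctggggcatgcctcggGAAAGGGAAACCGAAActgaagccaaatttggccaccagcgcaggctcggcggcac
OAS3, chr12:112938452-112938481, plus strand: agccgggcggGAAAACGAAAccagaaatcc
SAMD9, chr7:93118066-93118155, minus strand: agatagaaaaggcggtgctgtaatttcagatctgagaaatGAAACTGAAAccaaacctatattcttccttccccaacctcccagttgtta
TAPBPL, chr12:6452076-6452105, plus strand: tgctctaagtGAAAGTGAAAgaaaagtcgg
IFIT2, chr10:89301934-89301963, plus strand: ccaaTTTCACTTTCtagTTTCACTTTCcct
APOL2, chr22:36239564-36239593, minus strand: ttgtgacTTTCACTTTCCCTTTCgaattcc
The APOL1 and APOL2 stretches printed here are identical. These genes are neighbouring paralogs, so reads from such stretches may have been split between them or dropped by the authors' mapping-quality filter, and their values are uncertain. The second set shows the ETS site CCGGAAGT, with capitals marking it, at the 4 most accessible shared promoters that hold it.
TADA3 (shared with ARPC4), chr3:9792942-9792971, minus strand: gcttgggccttCCGGAAGTtttccacctag
BCL2L1, chr20:31723936-31723965, minus strand: ttgccgcggcaCCGGAAGTgactgagcttg
PDCD6, chr5:271599-271628, plus strand: ttcctgcgcccCCGGAAGTggtgataatgc
DDX39B, chr6:31541999-31542028, minus strand: gaagcctgcaaCCGGAAGTgaaggcagatt

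Shared promoters were strong peaks. The value of a region was its pileup, the number of tags stacked at the summit of its most significant peak, which ranged over libraries from a median of 72 tags in sgFLI1-IFN-γ to 96 in WT-IFN-γ. At the other 29201 regions shared by all 4 lists the median pileup was 30 to 38 tags. Dividing by the tag density of each library, which was 6.86 to 8.84 tags per kb, gave a depth-corrected pileup with medians of 11.6, 10.9, 11.5 and 10.5. The same medians at the other shared regions were 4.35, 4.30, 4.76 and 4.37. Of the 1000 shared regions with the highest mean depth-corrected pileup, 805 were promoters, against 28.6% of all shared regions. Promoter peaks were also wider, with medians of 1026 to 1096 bp in the 4 libraries against 688 to 782 bp elsewhere. The lists themselves held 59629 to 67470 peaks, of which 17.6% to 19.9% lay in shared promoters.

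The strongest shared promoters changed little between libraries. The highest mean depth-corrected pileup, 43.9, was at the promoter of TADA3, an adaptor subunit of histone acetyltransferase complexes, and of ARPC4, a subunit of the actin-nucleating Arp2/3 complex (chromosome 3, 9792235 to 9793629). Its pileups were 391, 402, 306 and 257 tags. After depth correction these were 48.6, 45.5, 44.1 and 37.5, all within 1.5-fold of each other. Next came the promoter between MRPS18B, a mitochondrial ribosomal protein, and PPP1R10, a phosphatase regulator, with depth-corrected values of 40.2, 36.0, 40.1 and 33.1. PRRC2A, the DNA glycosylase gene OGG1, C6orf62, the CCT3 chaperonin promoter shared with TSACC, TMEM53 and ITFG2 followed. At these 8 promoters every ratio between libraries that the design compares lay within 1.5-fold. Promoters with TSSs on both strands numbered 1342 (11.5%) and had a median mean depth-corrected pileup of 14.2, against 10.8 for promoters with TSSs on 1 strand.

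The WT summit lay upstream of the nearest TSS in 62.6% of shared promoters, at a median of -30 bp (quartiles -128 and 27 bp). It was within 100 bp of the TSS in 55.0% and within 250 bp in 80.3%. In the annotation of the nearest gene, 40.5% of summits lay outside the transcribed span, 30.1% in an untranslated exon, 23.7% in an intron and 5.68% in a coding exon. Most summits, but not all, lay near the WT summit in the other libraries. The summit of another library lay within 100 bp of the WT summit in 69.9% to 71.9% of promoters, with median distances of 47 to 52 bp. The median depth-corrected pileup was 11.3 for summits within 100 bp of the TSS, 12.1 from there to 250 bp, and 7.61 between 500 and 900 bp.

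The sequence under the summits differed in composition from that of the other shared regions. Within 100 bp on each side of the WT summit the median GC content was 66.7% (quartiles 60.2% and 72.1%) at promoters and 50.2% (43.8% and 57.2%) elsewhere. The ratio of observed to expected CpG had a median of 0.85 at promoters and 0.25 elsewhere. The exact ETS site CCGGAAGT was found on either strand in 677 promoters (5.80%, Wilson 95% interval 5.39% to 6.24%) and in 0.421% of the other regions (0.353% to 0.502%). GGGCGGG, the core bound by SP and KLF factors, was in 38.6% of promoters and 6.66% of other regions. GCGCATGCG, bound by NRF1, was in 2.72% against 0.175%, AAGATGGCG, bound by YY1, in 2.60% against 0.267%, and the cyclic AMP response element TGACGTCA in 2.3% against 0.486%. CCAAT followed by C or G, bound by NF-Y, was in 21.2% against 13.6%, and the E-box CACGTG in 7.0% against 3.60%. The order turned for AP-1, the dimer of JUN and FOS proteins: TGANTCA was in 5.24% of promoters (4.85% to 5.66%) and in 29.8% of other regions (29.3% to 30.3%). The paired GAAA motif was in 1.73% of promoters (1.51% to 1.98%) and 2.43% of other regions (2.26% to 2.62%). A match shows that these letters are present, not that a factor is bound. The part of base composition in these shares was not tested.

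Ratios between libraries were read at the 10195 shared promoters with a mean pileup of at least 40 tags (87.3%). The same filter kept 11980 of the other regions (41.0%). Of the promoters kept, 8988 (88.2%) stayed within 1.5-fold in all 4 comparisons of treatment and genotype, against 66.7% of the other regions kept. Promoters had the higher pileups, so the shares were also read at matched depth. At pileups of 60 to 90 tags, 1.86% of 3122 promoters and 7.07% of 3762 other regions were past 1.5-fold between WT-IFN-γ and WT, and 6.09% and 18.4% between sgFLI1 and WT. In the next class, up to 1.5 times deeper, the same shares were 0.298% and 2.62%, and 3.36% and 7.95%. These shares are descriptions of 1 library per group.

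The spread of the ratios can be set beside what counting alone gives. For WT-IFN-γ over WT the SD of the log2 ratio over the promoters kept was 0.22, and Poisson counting predicts 0.21. For sgFLI1-IFN-γ over sgFLI1 it was 0.22 against a predicted 0.24. The genotype comparisons were wider than counting, with 0.31 against 0.22 for sgFLI1 over WT and 0.30 against 0.23 for sgFLI1-IFN-γ over WT-IFN-γ. At the other regions the SD of WT-IFN-γ over WT was 0.36 against a predicted 0.25.

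The question behind the IFN-γ comparisons was which promoters opened with treatment in each genotype. In WT, 17 shared promoters were at least 2-fold higher with IFN-γ and 5 were at least 2-fold lower, where all regions that passed the filter gave 0.839% higher and 0.158% lower. Thus 0.167% of promoters were higher, below the share over all regions. In sgFLI1, 0 promoters were 2-fold higher and 2 were 2-fold lower, against 0.0135% and 0.0406% of all regions. The count of 0 depends on the scaling as well as on the limit and filter. Centring ratios on all shared regions gave 7 promoters higher and 0 lower in sgFLI1. At 1.5-fold, 25 promoters were higher and 223 lower in sgFLI1 (all regions: 0.460% and 3.32%), and in WT 84 were higher and 88 lower (all regions: 3.18% and 2.35%). The median log2 ratio over all shared promoters was -0.08 in WT and -0.16 in sgFLI1. These small medians rest on the depth correction. Dividing by the background that the peak caller used, in place of tags per kb, adds 0.14 to every log2 ratio in WT and turns its median to 0.06.

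Of the 17 promoters that were 2-fold higher in WT, 5 belonged to the interferon lists described below. TRANK1, a gene encoding a large ankyrin-repeat protein, had the highest ratio (chromosome 3, 36907908 to 36908724), with 20, 111, 15 and 27 tags. WT-IFN-γ stood alone, and its ratio to WT was 5.05 (95% counting interval 3.12 to 8.59), against 1.82 (0.934 to 3.68) in sgFLI1. IFI16, which encodes a nuclear DNA sensor, had 2 shared promoters. The one at its internal start (chromosome 1, 159009477 to 159010682) had 27, 142, 39 and 43 tags, with ratios of 4.79 (3.16 to 7.52) in WT and 1.11 (0.705 to 1.76) in sgFLI1. Its upstream promoter (158998621 to 159000929) had 43, 108, 36 and 57 tags. C1S, a protease of the classical complement pathway, had 25, 118, 27 and 32 tags, a ratio of 4.30 (2.77 to 6.91) in WT and 1.20 (0.695 to 2.08) in sgFLI1. The depth-corrected counting intervals of WT-IFN-γ did not overlap those of any other library at TRANK1, C1S and the internal IFI16 promoter. These promoters were named for the highest IFN-γ ratios in WT and passed the filter through WT-IFN-γ. The lack of overlap follows in part from that choice.

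ISG15, a ubiquitin-like protein that is conjugated to targets after interferon exposure, had 51, 143, 53 and 60 tags at its summit 75 bp upstream of the TSS (chromosome 1, 1012974 to 1014040). This is the stretch whose overlapping GAAA pairs are printed above. The ratio was 2.55 (1.84 to 3.59) in WT and 1.14 (0.777 to 1.69) in sgFLI1. RAET1E, a ligand of the NKG2D receptor of natural killer cells, had 40, 111, 57 and 47 tags and a ratio of 2.53 (1.74 to 3.72) in WT. OAS3, which makes the 2-5A messenger that activates RNase L, had 40, 99, 34 and 43 tags. PLSCR4, a scramblase family member that holds the paired GAAA motif, had 41, 94, 36 and 24. At all of these WT-IFN-γ was the highest library, but they too were named for their IFN-γ ratios.

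IL7R, a receptor chain for interleukin 7, followed another course. It had 31, 100, 79 and 92 tags (chromosome 5, 35851177 to 35852705). Here WT alone was low, so the ratio was 2.94 (1.95 to 4.55) for IFN-γ in WT and 2.96 (1.93 to 4.64) for sgFLI1 over WT without treatment, while IFN-γ in sgFLI1 gave 1.18 (0.862 to 1.61). IFI44L, an interferon-induced gene, had 23, 63, 42 and 35 tags and was also lowest in WT. MUC16, the cell-surface mucin known as CA125, had 57, 137, 21 and 26 tags, so that it was 2.19-fold higher with IFN-γ in WT and 0.427 times WT in sgFLI1.

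**Figure D1:**
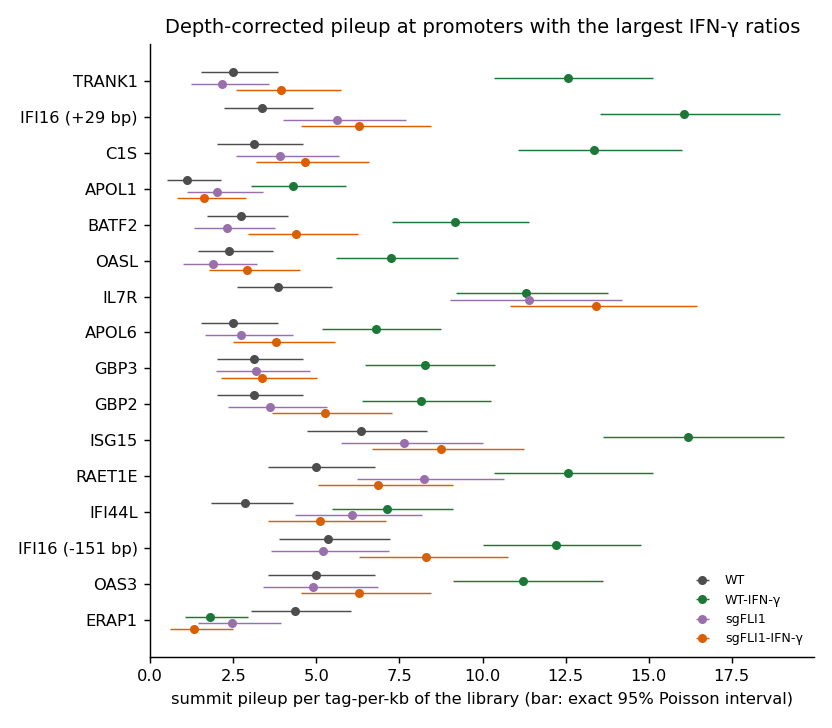
Depth-corrected summit pileup (x axis, tags at the summit divided by the library's tags per kb) of 16 shared promoters, the 6 with the highest IFN-γ ratio in WT and the 12 of the interferon lists with the largest IFN-γ ratios less those in both, with points for the 4 libraries and bars for exact 95% Poisson intervals. WT-IFN-γ lies to the right of the other 3 libraries at most of these promoters, from TRANK1 (12.6 against 2.49 in WT) to OAS3, whereas IL7R is low in WT alone and ERAP1 is lower with IFN-γ.

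The 5 promoters that were at least 2-fold lower with IFN-γ in WT were NUTM2E, TIMM23B with PARG, HHAT, VEPH1 and AOX1. NUTM2E and TIMM23B belong to multi-copy families, so their reads are uncertain. NUTM2E had 73, 35, 45 and 50 tags, and TIMM23B 61, 31, 47 and 42. HHAT, the acyltransferase that palmitoylates Hedgehog proteins, had 35, 18, 67 and 46, VEPH1 66, 34, 36 and 41, and the aldehyde oxidase gene AOX1 57, 30, 59 and 45. BSX, a homeobox gene, was next, with 60, 33, 41 and 27. In sgFLI1 the 2 promoters past 2-fold were ADAMTS18, a secreted metalloprotease, with 64, 55, 31 and 14 tags, and KRT17, a keratin of basal and activated keratinocytes, with 67, 64, 39 and 18. Both were lowest in sgFLI1-IFN-γ. After centring on all shared regions their log2 ratios were -0.99 for ADAMTS18 and -0.96 for KRT17, within 2-fold. Among promoters with 1 peak of each list the highest ratios in sgFLI1 reached 1.95-fold at VWA3B (58, 99, 15 and 29 tags), 1.89-fold at LMO7 (75, 86, 8 and 15) and CHMP6 (50, 48, 23 and 43), with TRANK1 at 1.82-fold. At LMO7 the interval (0.754 to 5.16) held 1.

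The IFN-γ ratios in WT and in sgFLI1 share no library. Pearson's r was 0.01 and Spearman's rho -0.02 over 10195 promoters, but since the spread of both ratios was close to counting error, an r near 0 says nothing of whether the responses followed each other. Of the 17 promoters that were 2-fold higher in WT, 12 had a log2 ratio above 0 in sgFLI1, 2 were past 1.5-fold and 0 past 2-fold, and their median log2 ratio there was 0.19 against -0.16 over all promoters kept. The ratio of the IFN-γ ratio in sgFLI1 to that in WT was below 0.5 at 39 promoters and above 2 at 11, where all regions gave 1.64% and 0.302%. At 1.5-fold the counts were 458 and 175 (all regions: 9.22% and 3.06%). Among promoters with 1 peak of each list the lowest were IFI16 (log2 -2.10), C1S (-1.84), NDST1 (-1.65), PLSCR4 (-1.63), RAET1E (-1.6) and IFI44L (-1.57). The highest were POM121C (1.72), NUTM2E (1.36), VEPH1 (1.30), CTBP1 (1.27), ZNF205 (1.24) and CHMP6 (1.11). POM121C, a nuclear pore gene with near-identical copies, is uncertain. With 1 library per group the difference between genotypes was not tested.

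**Figure D2:**
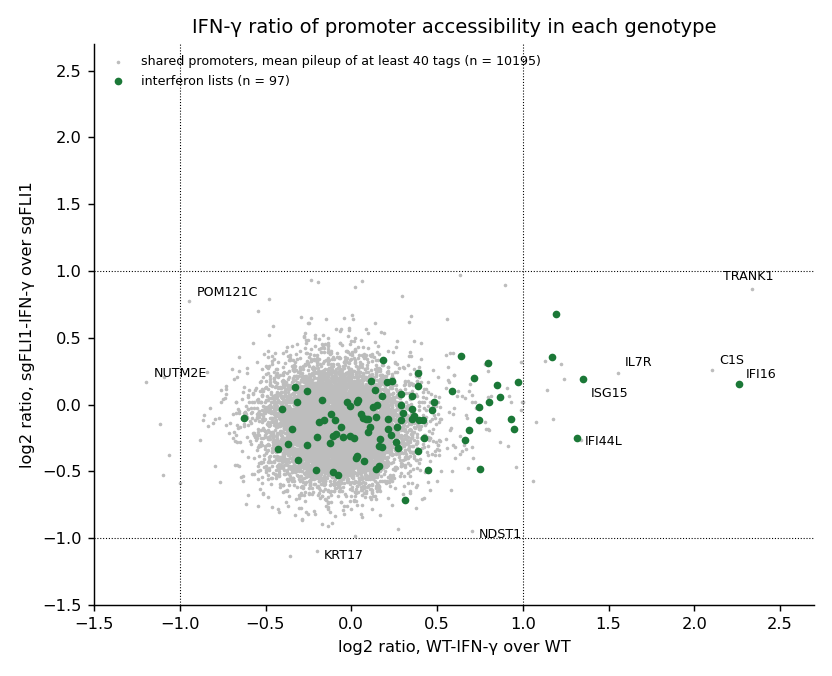
log2 ratio of depth-corrected pileup with IFN-γ in WT (x axis) and in sgFLI1 (y axis) for the 10195 shared promoters with a mean pileup of at least 40 tags, with the 97 interferon-list promoters in green and dotted lines at 2-fold. The green points spread to the right, to 2.26 at IFI16, and stay within 1 on the y axis.

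The genes of interferon response were read as lists, which were chosen with earlier results of these data known. Among 59 promoters of interferon-inducible effectors that passed the filter, 19 were at least 1.5-fold higher with IFN-γ in WT and 0 lower, with a median log2 ratio of 0.29 against -0.08 over all promoters kept. The shares over all regions were 3.18% higher and 2.35% lower in WT, and 0.460% and 3.32% in sgFLI1. In sgFLI1, 1 was higher and 1 lower, with a median of -0.07 against -0.16, and the sign of that median turns when ratios are centred on all shared regions, whose median was -0.14. The list had 86 genes, of which 60 had a shared promoter in 69 regions. In sgFLI1-IFN-γ over WT-IFN-γ, 13 of the 59 were lower and 2 higher, with a median of -0.35 against -0.06. All regions gave 4.78% higher and 7.54% lower at 1.5-fold. Without treatment 7 were higher and 1 lower in sgFLI1 over WT, with a median of 0.11 against 0.03, where all regions gave 7.84% and 5.00%.

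Other effectors with large ratios had fewer tags. BATF2, a basic leucine zipper factor, had 22, 81, 16 and 30 tags and OASL, a relative of the OAS enzymes, 19, 64, 13 and 20. GBP2 and GBP3, GTPases that attack vacuoles of intracellular pathogens, had 25, 72, 25 and 36 and 25, 73, 22 and 23. APOL6 had 20, 60, 19 and 26, and APOL1, the apolipoprotein that lyses trypanosomes, 9, 38, 14 and 11. The means of these promoters lay under the 40 tags of the filter, so they are in no count above. Here too WT-IFN-γ was the highest library at each promoter, and these too were named for large IFN-γ ratios. The following were picked out after their values were seen. IFIT1 (46, 76, 34 and 36 tags) and IFIT3 (47, 90, 40 and 40), which bind foreign RNA or each other, and MX1, a dynamin-like GTPase (36, 65, 29 and 33), were also highest in WT-IFN-γ. DTX3L and PARP9, a ubiquitin ligase and its partner that share a divergent promoter, had 83, 164, 96 and 105 tags, and TRIM21, a cytosolic antibody receptor, had 64, 134, 71 and 65. SAMD9, whose motif is printed above, had 21, 49, 20 and 21.

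Other interferon genes, also picked out after their values were seen, differed less. RIGI, a sensor of viral RNA, had 120, 145, 105 and 112 tags, EIF2AK2 (the kinase PKR) 63, 69, 49 and 48, IFI6 99, 105, 98 and 82, and the promoter of WARS1, a tryptophanyl-tRNA synthetase, 115, 134, 98 and 90. All had ratios within 1.5-fold in both IFN-γ comparisons.

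In the antigen presentation list, 22 of 27 genes had a shared promoter. Of the 17 promoters that passed the filter, 0 were 1.5-fold higher with IFN-γ in WT and 1, of the disulfide isomerase PDIA3, was lower. All promoters kept gave 0.824% and 0.863%, and all regions 3.18% and 2.35%. With 17 promoters these counts cannot be told from such shares. The median log2 ratio was 0.14 in WT and -0.11 in sgFLI1. TAP1 and PSMB9, the peptide transporter and an immunoproteasome subunit that share a bidirectional promoter, had 149, 198, 142 and 112 tags. HLA-E, a non-classical class I molecule, had 157, 227, 140 and 128, and NLRC5, the transactivator of class I genes, 71, 108, 50 and 48. B2M, the light chain of class I molecules, had 125, 159, 112 and 103. WT-IFN-γ had the most tags at all of these, and its depth-corrected ratio to WT was within 1.5-fold. TAPBPL, a relative of the loading chaperone tapasin, had 18, 41, 21 and 18 tags, with a mean under the filter. These 5 were picked out after their values were seen. ERAP1, a peptide-trimming aminopeptidase, had 2 shared promoters. The weaker, with 35, 16, 17 and 9 tags and a mean under the filter, was 0.416 times WT with IFN-γ (0.215 to 0.772), and the stronger had 122, 173, 121 and 113. HLA genes are similar in sequence and their counts are uncertain.

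Of 20 receptor and signalling genes 19 had a shared promoter. Among the 21 promoters that passed the filter, 1 was 1.5-fold higher with IFN-γ in WT, against 0.824% of all promoters kept and 3.18% of all regions. It was that of NMI, an interferon-induced adaptor, with 52, 92, 45 and 39 tags. IFNGR1, the ligand-binding receptor chain, had 113, 146, 116 and 98 tags, and IFNGR2, its partner, 26, 25, 25 and 25. JAK1 had 2 shared promoters, with 83, 96, 92 and 68 and 79, 107, 93 and 88 tags. IRF1, the factor induced early by IFN-γ, had 132, 151, 142 and 134 at one and 112, 172, 122 and 122 at the other. SOCS1, a feedback inhibitor of Janus kinases, had 168, 161, 122 and 102. The median log2 ratio of the list was 0.06 in WT and -0.23 in sgFLI1. Apart from NMI, the genes of this list were picked out for their roles in the pathway.

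The paired GAAA motif was held by 172 of the promoters that passed the filter. With the motif, 15 were 1.5-fold higher with IFN-γ in WT and 0 lower, against 69 and 88 of 10023 without it. Their median log2 ratios were -0.00 and -0.08 in WT and -0.12 and -0.16 in sgFLI1. In sgFLI1-IFN-γ over WT-IFN-γ, 24 of the 172 were 1.5-fold lower and 1 higher, against 422 (4.21%) and 169 (1.69%) of the 10023 without the motif. Outside the interferon lists, 148 promoters held the motif, of which 8 were higher with IFN-γ in WT and 0 lower, against 56 and 87 of 9950 without it. The shares over all regions, 3.18% and 2.35%, apply here too, and they lie above those of promoters without the motif. The ETS site was read in the same way. Among 654 with CCGGAAGT the median log2 ratio of sgFLI1 over WT was 0.00, with 15 (2.29%) at least 1.5-fold higher and 19 (2.91%) lower. Among 9541 without it the median was 0.03, with 238 (2.49%) and 300 (3.14%), where all regions gave 7.84% and 5.00%. With IFN-γ the medians were -0.04 and -0.06. Promoters with the AP-1 site TGANTCA numbered 451, of which 37 (8.20%) were at least 1.5-fold higher and 10 (2.22%) lower in sgFLI1 over WT, against 216 (2.22%) and 309 (3.17%) of 9744 without it. All regions gave 7.84% and 5.00%. With IFN-γ the balance turned, as 16 (3.55%) were higher and 41 (9.09%) lower in sgFLI1-IFN-γ over WT-IFN-γ. Without the site the shares there were 1.58% and 4.16%, and over all regions 4.78% and 7.54%. For WT-IFN-γ over WT, 23 (5.10%) with the site were higher and 5 (1.11%) lower. Without the site the shares were 0.626% and 0.852%, and over all regions 3.18% and 2.35%.

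Housekeeping lists stayed near the median of all promoters. None of the 86 cytosolic ribosomal protein promoters, 78 mitochondrial ribosomal protein promoters, 33 proteasome promoters, 77 respiratory chain promoters, 44 DNA replication promoters, 28 histone promoters, 26 cholesterol promoters or 32 chaperone promoters that passed the filter was past 1.5-fold with IFN-γ in WT, and their list medians ran from -0.13 to -0.03. Few calls were possible, since over all promoters kept 0.824% were higher and 0.863% lower. At 90 to 135 tags 0.298% of promoters were past 1.5-fold. A count of 0 is thus near the share of promoters in general. In sgFLI1 with IFN-γ, 0 to 3 promoters of each of these lists were 1.5-fold lower, and 1 proteasome promoter was higher. All promoters kept gave 2.19% lower and 0.245% higher there. RPL36 had the lowest ratio among cytosolic ribosomal proteins, with 152, 141, 115 and 72 tags, and LRSAM1 with RPL12 the highest, with 198, 177, 127 and 166. The proteasome promoter was that of PSMC1, with 55, 44, 33 and 49 tags. For sgFLI1 over WT the list medians ran from -0.03 for cytosolic ribosomal proteins to 0.11 for chaperones. In sgFLI1-IFN-γ over WT-IFN-γ, 6 cytosolic ribosomal protein promoters were 1.5-fold lower and 1 higher. In each other list 0 to 3 were lower and 0 or 1 higher, where all promoters kept gave 4.37% and 1.67%.

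Among immediate early genes, FOSB had 205, 203, 130 and 134 tags and ATF3 156, 177, 177 and 118. Of the 25 promoters of the list, 0 was past 1.5-fold with IFN-γ in either genotype. All promoters kept gave 0.824% higher and 0.863% lower in WT, and 0.245% and 2.19% in sgFLI1. All regions gave 3.18% and 2.35% in WT, and 0.460% and 3.32% in sgFLI1. Among so few promoters a count of 0 is near the shares of all promoters kept. In the NF-kappaB list, 2 of the 22 promoters that passed the filter were 1.5-fold higher with IFN-γ in WT. TNIP1, a brake on the pathway, was 1 of them, with 48, 91, 62 and 54 tags. The other was an internal start of the adaptor TRAF2, with 125, 207, 120 and 96 tags. Among 301 promoters of C2H2 zinc finger genes named ZNF, 1 was higher and 1 lower with IFN-γ in WT, and 3 were higher and 13 lower in sgFLI1 over WT, with medians of -0.14 and -0.10. The share over all shared promoters kept was 2.48% higher and 3.13% lower in sgFLI1 over WT, and over all regions 7.84% and 5.00%. With IFN-γ in WT these shares were 0.824% and 0.863%, and 3.18% and 2.35%. Genotype ratios also differed by chromosome. On chromosome 19, 0.139% of 718 promoters kept were higher and 5.71% lower in sgFLI1 over WT, and the median of its shared promoters was -0.18. The part of chromosome in the ZNF counts was not tested. The 19 promoters of lysine acetyltransferases and bromodomain partners had 0 past 1.5-fold with IFN-γ in either genotype. That count too is near the shares of all promoters kept. CREBBP had 86, 94, 75 and 65 tags at its main promoter and 45, 35, 25 and 25 at the downstream summit, and KAT5 had 212, 206, 172 and 169. In the ETS list ETV4 had the highest genotype ratio at its promoter at 43530347 to 43531612 on chromosome 17, with 57, 63, 100 and 78 tags. In the kynurenine list, KMO, kynurenine monooxygenase, had the highest IFN-γ ratio of its list in both genotypes, with 49, 68, 37 and 47 tags. Of the 6 promoters 0 was past 1.5-fold, again near the shares of all promoters kept.

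**Figure D3:**
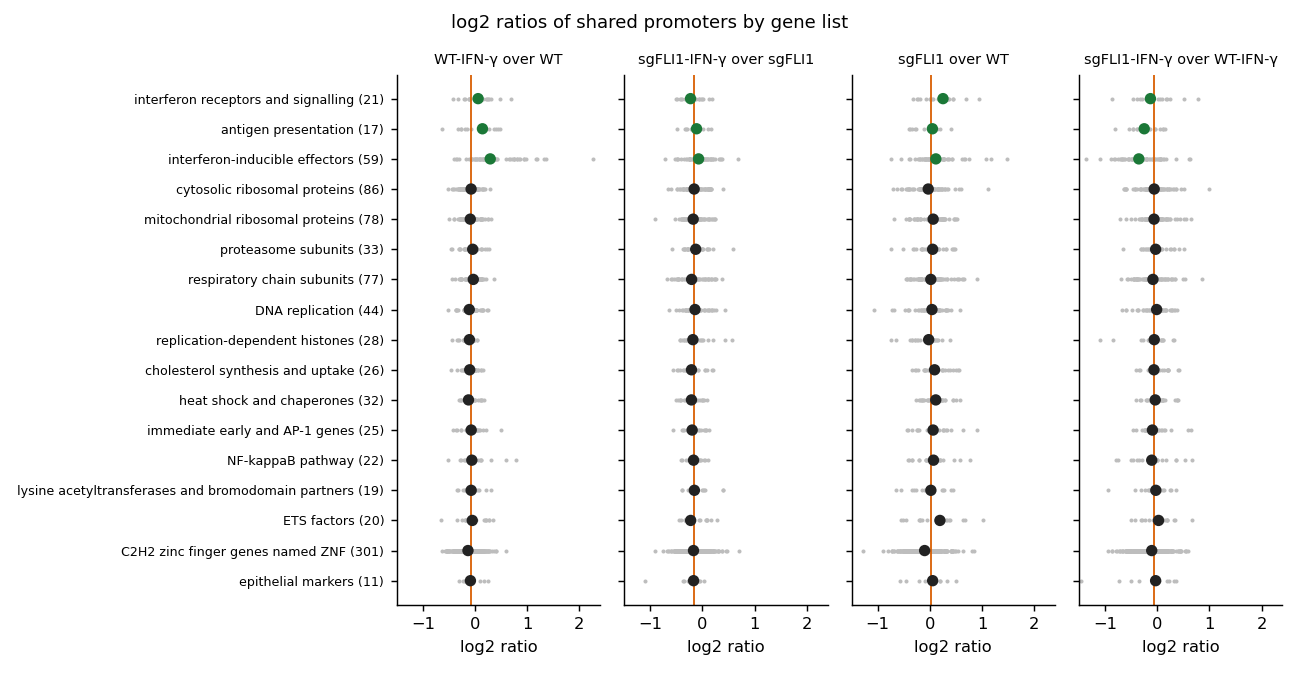
log2 ratio (x axis) in the 4 comparisons for the promoters of each gene list with at least 10 that passed the filter (number in parentheses), with grey points for promoters, large points for list medians (interferon lists in green) and an orange line at the median of all 10195 promoters. The effectors list is shifted right in WT (0.29) and left in sgFLI1-IFN-γ over WT-IFN-γ (-0.35), and the housekeeping lists lie along the line.

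Marker promoters of epithelial and other cell types were read. Of 17 epithelial markers 10 (58.8%) had a shared promoter, against 61.0% of all protein-coding genes. The shares are close, so this count does not mark epithelial identity. Among the 10 were KRT8 (201, 216, 163 and 156 tags at the strongest of 3), KRT18 (95, 91, 85 and 80), DSP (121, 125, 108 and 95) and SFN (118, 111, 106 and 107), picked out after their values were seen. KRT17, given above, was the lowest of the list in sgFLI1-IFN-γ over WT-IFN-γ, with a log2 ratio of -1.46. Of the 11 epithelial promoters that passed the filter, 2 were 1.5-fold lower in that comparison. All promoters kept gave 4.37% lower there and all regions 7.54%. Of 17 markers of T cells, B cells, myeloid cells, endothelium and fibroblasts 5 had one, COL1A1 with 142, 172, 132 and 157 tags, CSF1R with 65, 61, 90 and 64, CD8A with 52, 49, 31 and 31, COL1A2 with 17, 16, 15 and 13 and CD14 with 14, 23, 32 and 23. CD3E, CD3D, PTPRC, MS4A1, PECAM1 and CDH5 were among those with none. An open promoter does not show expression.

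The genotype comparisons asked which promoters differed between FLI1 knockout and unedited cells. Without treatment, 38 shared promoters were at least 2-fold higher and 38 at least 2-fold lower in sgFLI1 than in WT, where all regions gave 2.23% and 0.852%. With IFN-γ, 22 were higher and 65 lower, against 1.09% and 1.72% of all regions. At 1.5-fold the counts were 253 and 319 without treatment (all regions: 7.84% and 5.00%) and 170 and 446 with it (all regions: 4.78% and 7.54%). The promoters' shares with IFN-γ were 1.67% and 4.37%, below those of all regions. The pairs of libraries behind these comparisons have no library in common. Over 10195 promoters their log2 ratios had a Pearson's r of 0.51 and a Spearman's rho of 0.41. Of the 38 that were higher without treatment, 28 were at least 1.5-fold higher with IFN-γ too, and of the 38 that were lower, 27 were at least 1.5-fold lower.

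The highest genotype ratio was at an alternative start of CBX5, which encodes heterochromatin protein HP1 alpha (chromosome 12, 54259208 to 54260261). It had 11, 20, 98 and 95 tags. Both knockout libraries were high and both unedited ones low, with ratios of 10.3 (5.53 to 21.4) and 6.12 (3.75 to 10.5). CPN2, a subunit of a plasma carboxypeptidase, had 14, 14, 79 and 66 tags, ratios of 6.55 (3.68 to 12.5) and 6.07 (3.38 to 11.7). The receptor tyrosine kinase gene ALK had 16, 18, 73 and 68, and PDE4B, a cyclic AMP phosphodiesterase, 25, 21, 96 and 76. EMP2, an epithelial membrane protein, had 30, 19, 75 and 54. At all 5 promoters the libraries fell by genotype, with or without treatment. They were named for the highest genotype ratios and passed the filter through the knockout libraries. The split by genotype follows in part from that choice.

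The lowest was LMO7, an adaptor at epithelial junctions (chromosome 13, 75760105 to 75761427), with 75, 86, 8 and 15 tags and ratios of 0.124 (0.0516 to 0.257) and 0.225 (0.121 to 0.392). CROT, a peroxisomal carnitine acyltransferase, had 84, 82, 15 and 8, and SOX5, an HMG-box transcription factor, 63, 91, 12 and 12. VWA3B had 58, 99, 15 and 29, NIBAN1 67, 56, 20 and 18, and FRMD3 56, 78, 17 and 14. CTBP1, a transcriptional corepressor, had 75, 59, 21 and 36, with both knockout libraries below both unedited ones in tags. Except at CTBP1 and VWA3B, the depth-corrected counting intervals of the knockout libraries did not overlap those of the unedited ones. These promoters were named for the lowest genotype ratios and passed the filter through the unedited libraries. The lack of overlap follows in part from that choice.

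**Figure D4:**
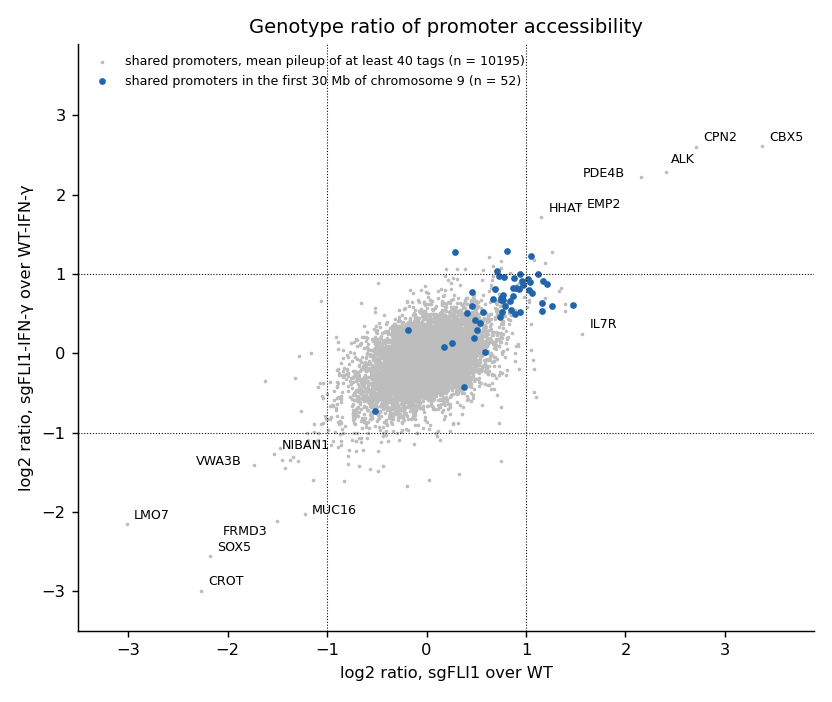
log2 ratio of depth-corrected pileup of sgFLI1 over WT (x axis) and of sgFLI1-IFN-γ over WT-IFN-γ (y axis) for the 10195 shared promoters that passed the filter, with dotted lines at 2-fold and the 52 promoters in the first 30 Mb of chromosome 9 in blue. CBX5, CPN2, ALK and PDE4B lie at the upper right, LMO7, SOX5 and CROT at the lower left, and the blue points around 0.7 on both axes.

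Genotype ratios moved together along chromosomes, and IFN-γ ratios did not. Chromosome medians of the promoters ran from -0.33 (chromosome 18) to 0.21 (chromosome 13) for sgFLI1 over WT, but from -0.11 to -0.05 for IFN-γ in WT and from -0.20 to -0.11 for IFN-γ in sgFLI1. In the first 30 Mb of chromosome 9, 58 promoters had a median log2 ratio of 0.78 and the 135 other shared regions one of 0.72, and 12 of the 38 promoters that were 2-fold higher lay there. Beyond 30 Mb the 432 promoters of that chromosome had a median of -0.24. In the first 20 Mb of chromosome X, 47 promoters had medians of -0.29 without and -0.69 with IFN-γ, and the 113 other shared regions -0.67 and -0.75, and all 12 promoters of chromosome X that were 2-fold lower with IFN-γ lay there. Chromosome 16 promoters had medians of -0.28 and -0.35. A difference in DNA copy number between the cells and a difference in accessibility cannot be told apart in these lists.

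Some immune genes lie in that stretch of chromosome 9, of which CD274, PDCD1LG2 and JAK2 were picked out after their values were seen. CD274, which encodes PD-L1, had 44, 81, 105 and 96 tags. Its sgFLI1 over WT ratio was 2.77 (1.93 to 4.03), a log2 of 1.47, where the median of 53 shared regions within 5 Mb was 0.81. PDCD1LG2, encoding PD-L2, had 30, 44, 58 and 53 tags and a log2 ratio of 1.17 beside a local median of 0.84, and JAK2 had 97, 109, 160 and 121 tags and 0.94 beside 0.82. RPS6, the highest ribosomal protein promoter in this comparison, had 70, 73, 131 and 113 tags and 1.12 beside 0.75. All 4 lay above the median of their surroundings. For sgFLI1 over WT, CBX5, CPN2, ALK, LMO7, CROT and SOX5 had local medians of -0.05 to 0.27. At PDE4B, VWA3B and NIBAN1 the local medians were 0.15, 0.12 and 0.10. Other promoters named above lay in lower surroundings, with local medians of -0.44 at FRMD3, -0.36 at CTBP1, -0.21 at MUC16 and -0.19 at EMP2. With the local median subtracted from each ratio, 17 promoters were 2-fold higher and 30 lower without treatment, and 18 and 41 with IFN-γ.

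The share of promoters past 1.5-fold was read by CpG content. Shared promoters were divided into 5 equal classes by the ratio of observed to expected CpG around the summit. In the class with the least CpG (below 0.62), 5.21% of the 1630 promoters kept were past 1.5-fold between WT-IFN-γ and WT, with 58 higher and 27 lower, against 0.916% to 1.18% in the other 4 classes. For sgFLI1 over WT the shares were 10.6% and 4.17% to 5.36%, and for sgFLI1-IFN-γ over WT-IFN-γ 12.1% and 3.99% to 5.93%. For IFN-γ in sgFLI1 they were 3.44% and 1.74% to 2.94%, and there the SD in the class with the least CpG, 0.23, was under the 0.25 that counting alone predicts. The class with the least CpG also had lower pileups, with a median depth-corrected value of 7.78 against 11.6 to 11.9, and the counting SD for WT-IFN-γ over WT was 0.23 there against 0.21 in the other classes, where the measured SD was 0.30 against 0.19 to 0.20. The effectors of interferon had a median CpG ratio of 0.54 and the cytosolic ribosomal proteins 0.94.

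**Figure D5:**
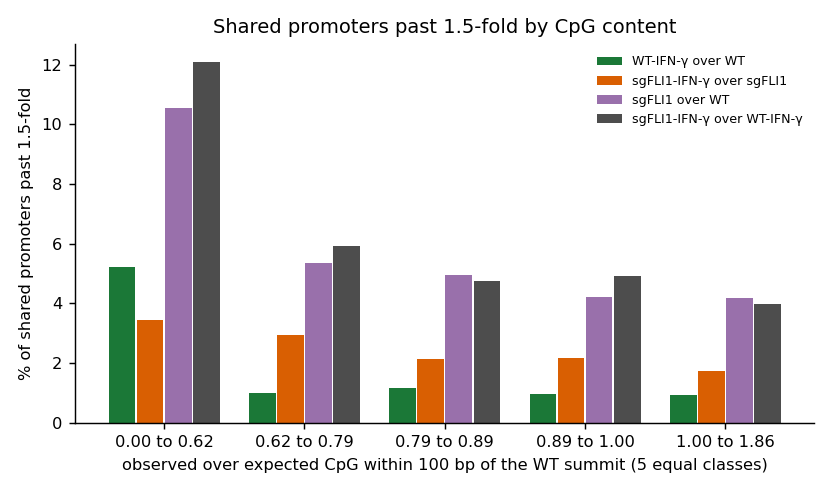
Share of shared promoters past 1.5-fold in either direction (y axis, %, from 0) in the 4 comparisons, for 5 classes of promoters by observed over expected CpG within 100 bp of the WT summit (x axis). The class with the least CpG is highest in every comparison, with 12.1% for sgFLI1-IFN-γ over WT-IFN-γ and 5.21% for IFN-γ in WT.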

How the data were processed

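The 4 ATAC-seq libraries of HK1 cells were analysed from the deposited peak lists, 1 per group. Per the labels and the submitters' processing notes, reads were trimmed with Trimmomatic 0.3, aligned to GRCh38 with Bowtie2 2.3.4.1, filtered for duplicates and mapping quality, and peaks were called with MACS2 2.1.2; the study's methods also name an irreproducible discovery rate filter, a step that compares replicates. How many libraries lie behind each deposited list, and whether tags were shifted for Tn5, is not given in the sources used here. The deposited columns hold a peak score, a fold enrichment (a ratio), -log10 p-values and q-values, and the summit offset. Tag counts were not given, so the summit pileup and local background were recovered as the whole number of tags that reproduces both the deposited fold and the deposited -log10 p-value, which succeeded for 100% of peaks in each list. Depth was set by the lowest background of a list divided by its shortest peak, taken as the extension length (tags per kb).

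Peaks were merged at 1 bp of overlap. Where a list had several peaks in a region the one with the highest -log10 q-value was used; 95.2% of shared promoters held 1 peak of each list. TSSs were those of protein-coding transcripts of GENCODE release 44. A call was a depth-corrected ratio of at least 2 (or 1.5 for gene lists) at a mean pileup of at least 40 tags, with no test. Intervals are exact Poisson, exact binomial (given the sum of both pileups) for a ratio, and Wilson for shares, at 95%. Named promoters were the 6 highest and 6 lowest in each comparison with 1 peak of each list, the 8 strongest, the 12 interferon-list promoters with the largest IFN-γ ratios past 1.5-fold, the extremes of each other list, and FLI1, CREBBP and KAT5; a region takes the name of the nearest TSS. A promoter was in a list when any TSS within 1000 bp belonged to a list gene. The set of promoters, the rules and the lists were chosen with earlier results of these data known. Some genes are not reported here. The steps were tested on simulated data. Python 3.11.15, numpy 2.4.6, pandas 2.3.3, scipy 1.17.1, pysam 0.24.0 and matplotlib 3.10.9 were used.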

Additional observations from a re-analysis of the deposited data

Results flagged for a closer look

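Some results moved in opposite directions with IFN-γ in the unedited and knockout cells. With 1 library per group these differences were not tested. The POM121C promoter had a log2 ratio of -0.94 in WT and 0.77 in sgFLI1, and that of NDST1, a heparan sulfate sulfotransferase with 38, 68, 70 and 36 tags in the order used above, had 0.70 and -0.94. Median log2 ratios had opposite signs for interferon receptors and signalling (0.058 in WT and -0.23 in sgFLI1), antigen presentation (0.14 and -0.11), interferon-inducible effectors (0.29 and -0.074), these 3 lists together (0.18 and -0.11) and the 3 promoters of markers of other cell types that passed the filter (-0.22 and 0.015). Centring on all shared regions, whose median log2 ratio in sgFLI1 was -0.14, turns the sign of the sgFLI1 medians of antigen presentation, effectors and the 3 lists together.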

How the results depend on the processing

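The number of shared promoters stayed within 1.5 times of 11675 under all 7 alternatives, from 9168 with gene-level TSSs to 13655 within 3000 bp. Of 93 named ratios past 2-fold, recomputed 513 times in all, 490 stayed past 2-fold, 23 moved within it and 0 changed direction. No paired analysis was possible because each group holds 1 library. Low pileups limit what can be called, since at 40 to 60 tags counting alone gives the log2 IFN-γ ratio in WT an SD of 0.28.

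Counts past 2-fold were 22 for IFN-γ in WT, 2 for IFN-γ in sgFLI1, 76 for sgFLI1 over WT, 87 for sgFLI1-IFN-γ over WT-IFN-γ and 50 for the ratio of IFN-γ ratios. At 1.5-fold they became 172, 248, 572, 616 and 633, and with no filter 53, 16, 174, 194 and 115, by construction. For IFN-γ in sgFLI1 centring on all shared regions gave 7 (7 higher and 0 lower), centring by chromosome 8, and subtracting local background 14. For the ratio of IFN-γ ratios subtracting background gave 91 and dividing by library background 76. Subtracting the local median, chosen after seeing the data, gave 47 for sgFLI1 over WT. Splits also moved: dividing by library background, also chosen after seeing the data, gave 31 higher and 1 lower for IFN-γ in WT and 48 and 28 for sgFLI1 over WT, and centring gave 30 and 46.

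The median log2 ratio of IFN-γ in WT (-0.081) became -0.0118 after centring, -0.0649 after background subtraction and 0.057 when divided by library background, which reversed it. That of IFN-γ in sgFLI1 (-0.158) became -0.0158 after centring, -0.174 after background subtraction and -0.136 divided by library background. For sgFLI1 over WT (0.0219) it reversed to -0.0287 after centring and to -0.019 with the local median subtracted, and was 0.0541 after background subtraction and 0.103 divided by library background. For sgFLI1-IFN-γ over WT-IFN-γ (-0.0551) it became -0.0298 after centring, -0.0895 divided by library background and -0.0268 with the local median subtracted. Beyond the construction of each alternative the cause was not tested. All motif shares were smaller with 50 bp on each side, as the window was narrower.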
